A study of Arabidopsis thaliana with 12 samples.

Results

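The chloroplast division machinery was followed through 10 of its genes, FTSZ1 (AT5G55280), FTSZ2-1 (AT2G36250), FTSZ2-2 (AT3G52750), ARC6 (AT5G42480), CDP1 (also called PARC6, AT3G19180), PDV1 (AT5G53280), PDV2 (AT2G16070), ARC5 (AT3G19720), MIND1 (AT5G24020) and MINE1 (AT1G69390). They were taken by locus. All probes annotated to these loci were used, 14 probes in all, and the array covered 25383 loci. Each of the 10 genes passed the detection filter, and 19020 genes were tested. Transcripts were read on one-colour Agilent arrays hybridised with Cy3-labelled cRNA from total RNA of whole, untreated Arabidopsis thaliana seedlings of the Col-0 background. The seedlings were 10 days old, grown in white light under long days and collected during the light period.

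There were 4 genotypes with 3 arrays each, described in the series as independent biological samples. They were wild type (WT), the single mutant arf2-8, the double mutant gnc gnl, and seedlings labelled arf2-8 gnc gnl. The labels name no allele for gnc or gnl, and all groups share the Col-0 background. ARF2 encodes an auxin response factor, a repressor of auxin-regulated transcription, and GNC and GNL encode related GATA factors that promote greening and chloroplast development.

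Chloroplasts multiply by binary fission. In the stroma, FtsZ proteins of bacterial ancestry form a ring at the middle of the organelle, and the Min proteins MinD and MinE keep that ring from forming elsewhere. ARC6 and its paralog CDP1 span the inner envelope and tie the ring to PDV2 and PDV1 of the outer envelope, which bring the dynamin ARC5 (also called DRP5B) from the cytosol to complete the constriction. The abundance of the PDV proteins is known to set the rate of division in Arabidopsis leaves.

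The genes named in the genotypes check the labels. ARF2 in arf2 was not well above background on replicates 1 and 2 and stood at 3.04% of the WT mean on replicate 3. GNC in gnc gnl stood at 3.92% to 5.90%, and no gnc gnl array had a GNL signal well above background. Seedlings labelled arf2-8 gnc gnl had GNC at 5.62% to 6.38% of WT, but ARF2 at 54.4% to 70.6% and GNL at 168% to 180%. Because ARF2 and GNL go against that label, these arrays are referred to below as the labelled libraries, and any direction read from them depends on the label. Each of 3 slides carried 4 arrays. All WT arrays shared slide 1 with arf2 replicate 1. The other arf2 arrays were on slide 2 beside labelled replicates 1 and 2, and all gnc gnl arrays were on slide 3 beside labelled replicate 3. No slide held both WT and gnc gnl, both arf2 and gnc gnl, or both WT and a labelled library. The RNA came from whole seedlings, so a different mix of organs, fewer cells of a type and less RNA per cell cannot be told apart.

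Signals are given as multiples of the 75th percentile of the same array, which lay between 2062 and 2872 intensity units. They rank arrays for 1 probe and cannot rank genes. Changes are on the log2 scale with their standard error, and an adjusted p comes from limma fitted to all 12 arrays and adjusted over all 19020 genes by the method of Benjamini and Hochberg, with 0.05 as the threshold. Every member probe used for the tests was well above background on each array where it had a value.

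Across the 4 genotypes 7 of the 10 genes differed by limma's F test, against 33.3% of all tested genes. PDV2 had the smallest adjusted p (0.00103), followed by MINE1 (0.0149), MIND1 (0.0233), ARC5 (0.0237), ARC6 (0.0297), PDV1 (0.0378) and CDP1 (0.0464). The 3 FtsZ genes did not pass, at adjusted p = 0.0755 for FTSZ2-1, 0.176 for FTSZ1 and 0.247 for FTSZ2-2. Left out singly, arf2 replicate 1, arf2 replicate 2 and gnc gnl replicate 2 each lowered the count to 3, and gnc gnl replicate 1 lowered it to 4. All tested genes that passed fell from 6342 to 5175, 4233, 5179 and 5360 in these fits. With slide as a fixed block 1 member and 633 of all tested genes passed. With median scaling 2 members and 5290 genes did, and with normexp correction 1 and 2306. The mean was lowest in gnc gnl for 8 genes and highest in arf2 for 9. Most neighbouring means in these orders were not separated by the test. Of 30 steps from 1 genotype to the next, 1 passed, the step from gnc gnl up to WT in PDV2.

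**Figure D1:**
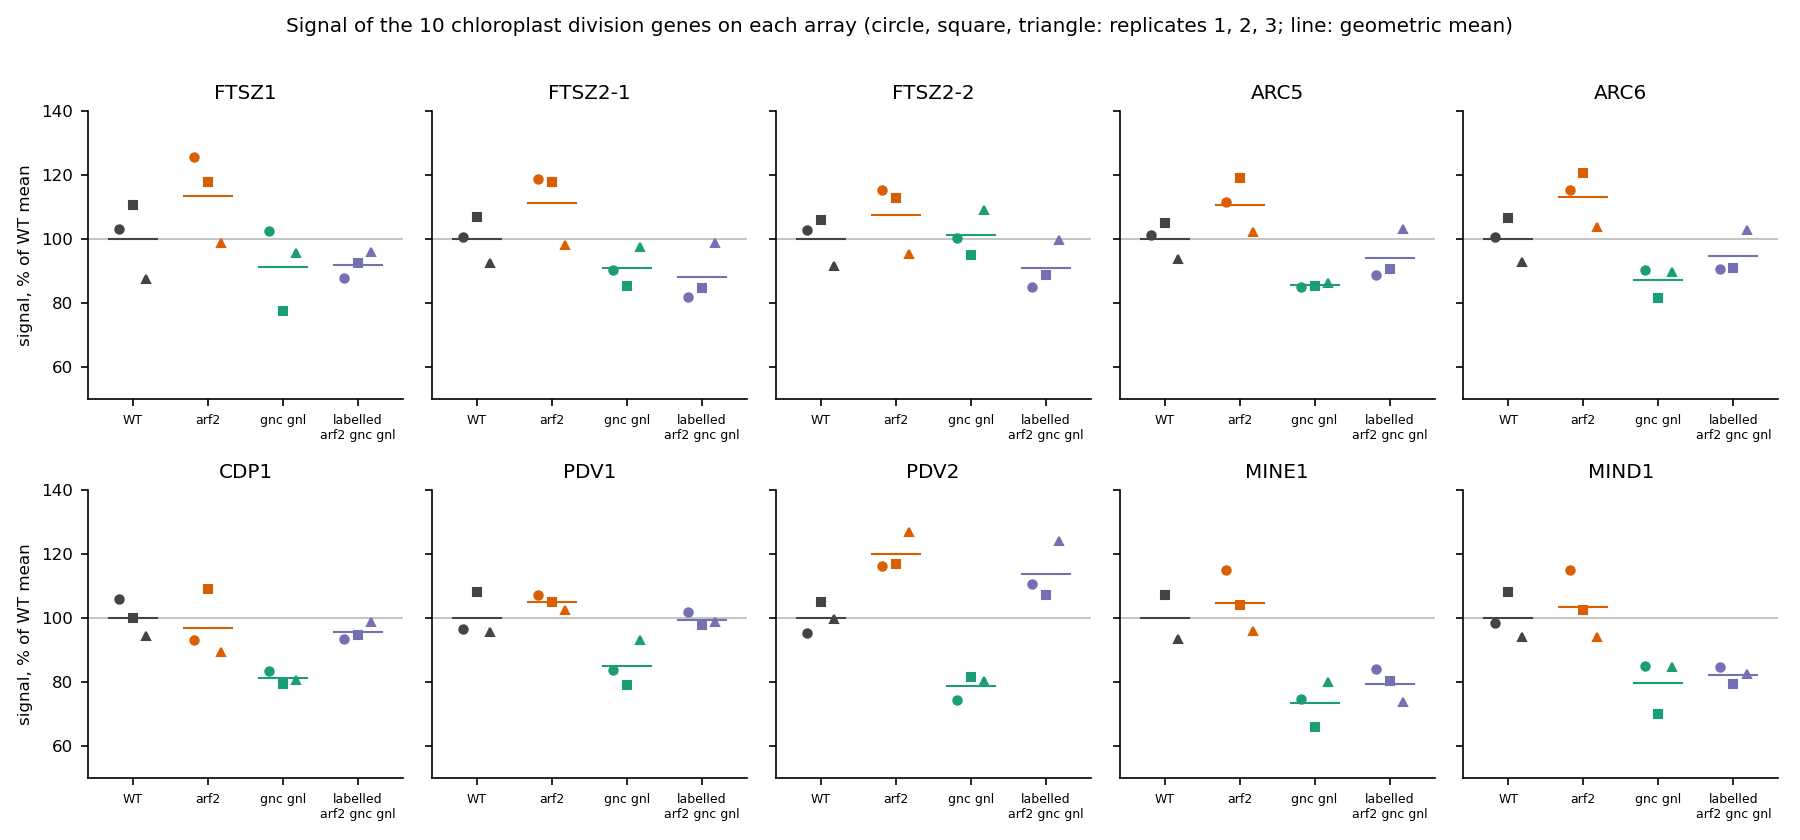
Signal of the 10 genes on each array in percent of the WT mean of that gene, with the genotypes on the horizontal axis. Circles, squares and triangles are replicates 1, 2 and 3, and lines are geometric means; MINE1 has 2 WT arrays. The gnc gnl arrays lie lowest or among the lowest for the MIN, PDV, ARC and CDP1 genes, while the FtsZ genes overlap between WT and gnc gnl.

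The FtsZ genes encode the tubulin-like subunits of the stromal ring, FTSZ1 and FTSZ2 being distinct families that polymerise together. FTSZ2-1 read 3.02, 3.20 and 2.77 in WT, 3.56, 3.52 and 2.94 in arf2, 2.70, 2.55 and 2.92 in gnc gnl, and 2.45, 2.54 and 2.95 in the labelled libraries. The gnc gnl and labelled arrays reached into the WT range, whereas every gnc gnl array lay below every arf2 array. Against WT the change in gnc gnl was -0.14 ± 0.10 (adjusted p = 0.355, limma), and against arf2 it was -0.29 ± 0.10 (adjusted p = 0.0459, limma).

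FTSZ2-2, the close paralog of FTSZ2-1, ranged from 1.19 to 1.37 in WT, from 1.24 to 1.50 in arf2, from 1.23 to 1.42 in gnc gnl and from 1.10 to 1.29 in the labelled libraries. All 4 ranges overlapped. Its change in gnc gnl against WT was 0.02 ± 0.10, the only one of the 10 above 0, with a 95% interval from -0.20 to 0.24.

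FTSZ1 ranged from 1.79 to 2.27 in WT, from 2.02 to 2.58 in arf2, from 1.59 to 2.10 in gnc gnl and from 1.80 to 1.97 in the labelled libraries, again with overlap between WT and each of the others. Its change in gnc gnl against WT was -0.13 ± 0.13 (adjusted p = 0.484, limma). FTSZ1 had 3 probes. On the other two the gnc gnl change from WT was -0.026 and -0.028, closer to 0 than on the brightest, while the arf2 change was 0.18 on the brightest and 0.16 and 0.17 on the others.

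ARC6, the inner envelope protein that stabilises FtsZ filaments, read 2.21, 2.34 and 2.03 in WT, 2.52, 2.64 and 2.27 in arf2, 1.98, 1.79 and 1.96 in gnc gnl, and 1.99, 1.99 and 2.25 in the labelled libraries. All gnc gnl arrays lay below all WT and all arf2 arrays. The value against WT, -0.20 ± 0.09, did not pass (adjusted p = 0.114, limma), and the one against arf2, -0.38 ± 0.09, did (adjusted p = 0.00655).

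CDP1, the paralog of ARC6 that acts with PDV1, read 1.14, 1.08 and 1.02 in WT, 1.01, 1.17 and 0.963 in arf2, 0.901, 0.857 and 0.871 in gnc gnl, and 1.01, 1.02 and 1.06 in the labelled libraries. The gnc gnl arrays were lower than every other array. The log2 change of CDP1 in gnc gnl was -0.30 ± 0.08 against WT (adjusted p = 0.0219, limma) and -0.25 ± 0.08 against arf2 (adjusted p = 0.0310). Its second probe gave -0.27 and -0.26 for the same comparisons. CDP1 was the only member whose mean was below WT in arf2, at -0.05 ± 0.08 (adjusted p = 0.828).

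PDV1, an outer envelope protein that recruits the dynamin, read 1.71, 1.92 and 1.70 in WT, 1.90, 1.86 and 1.82 in arf2, 1.49, 1.40 and 1.65 in gnc gnl, and 1.80, 1.74 and 1.75 in the labelled libraries. All gnc gnl arrays lay below all other arrays, and the remaining genotypes overlapped with WT. PDV1 in gnc gnl was lower than in WT by a log2 change of -0.23 ± 0.08 (adjusted p = 0.0454, limma) and lower than in arf2 by -0.30 ± 0.08 (adjusted p = 0.0102). In the labelled libraries PDV1 differed from WT by -0.01 ± 0.08, with a 95% interval from -0.17 to 0.16.

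PDV2, the outer envelope partner of ARC6, read 0.578, 0.636 and 0.604 in WT, 0.705, 0.708 and 0.769 in arf2, 0.452, 0.493 and 0.486 in gnc gnl, and 0.671, 0.649 and 0.752 in the labelled libraries. The gnc gnl arrays lay below WT, and the arf2 and labelled arrays lay above it, with no overlap with WT in any direction. PDV2 was lower in gnc gnl, with a log2 change of -0.35 ± 0.08 against WT (adjusted p = 0.00945, limma) and of -0.61 ± 0.08 against arf2 (adjusted p = 2.66e-04). The latter was the largest change of a member in any of the 6 pairwise comparisons. The values above WT, 0.26 ± 0.08 in arf2 and 0.19 ± 0.08 in the labelled libraries, did not pass (adjusted p = 0.0749 and 0.219).

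These PDV2 values come from the dimmer of 2 probes. The scanner software marked the brighter probe as an outlier spot on all 4 arrays of slide 1, that is on all WT arrays and arf2 replicate 1, so this probe could not be compared with WT under the filter on outlier spots. On arrays without the mark it gave -0.40 for gnc gnl against arf2, the direction of the dimmer probe, and 0.16 for labelled against gnc gnl, where the dimmer probe gave 0.53. With the marked spots kept, the brighter probe read -0.34 for gnc gnl, 0.10 for arf2 and -0.17 for the labelled libraries against WT. For the labelled libraries the 2 probes therefore have opposite signs, and no direction from WT is given for PDV2 there.

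**Figure D2:**
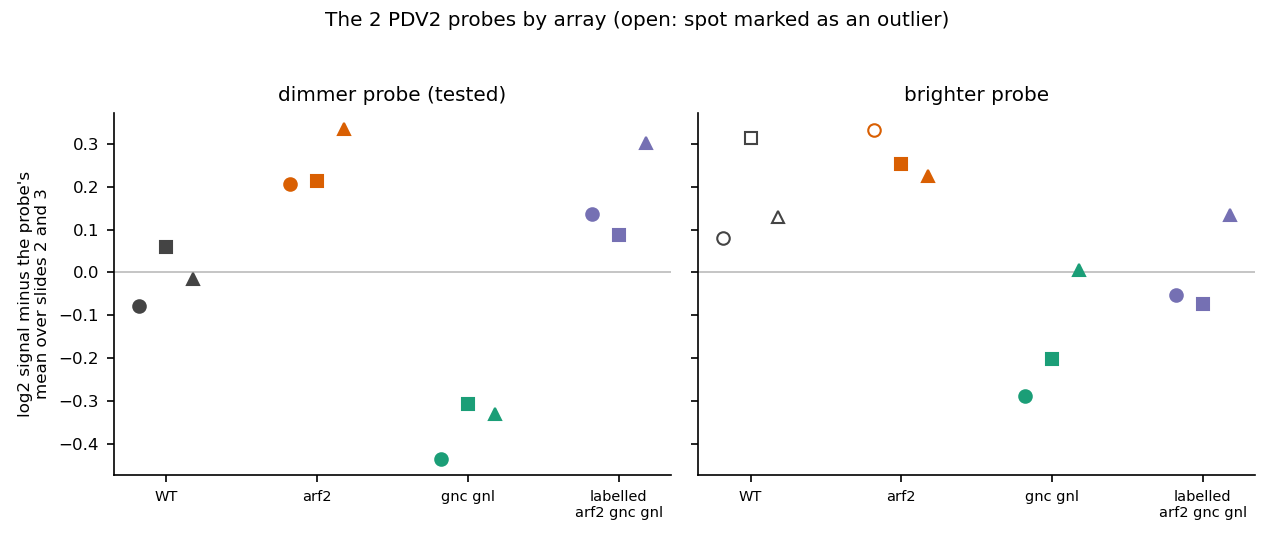
Log2 signal of the 2 PDV2 probes on each array, each probe shown relative to its own mean over the 8 arrays of slides 2 and 3, by genotype and replicate (circle, square and triangle for 1, 2 and 3). Open symbols are spots marked as outliers. The gnc gnl arrays are lowest on the dimmer probe, and on the brighter one gnc gnl replicate 3 lies among the labelled libraries.

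ARC5, the dynamin-related GTPase that constricts the organelle from outside, read 0.928, 0.962 and 0.857 in WT, 1.02, 1.09 and 0.936 in arf2, 0.778, 0.782 and 0.790 in gnc gnl, and 0.813, 0.830 and 0.943 in the labelled libraries. All gnc gnl arrays lay below every other array and within a narrow range, with an SD of 0.011 on the log2 scale. The value against WT, -0.22 ± 0.08, missed the threshold (adjusted p = 0.0652, limma), and the one against arf2, -0.37 ± 0.08, passed it (adjusted p = 0.00516).

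MIND1, the ATPase that restricts where FtsZ assembles, read 2.38, 2.61 and 2.27 in WT, 2.78, 2.48 and 2.27 in arf2, 2.06, 1.69 and 2.05 in gnc gnl, and 2.05, 1.92 and 1.99 in the labelled libraries. Both the gnc gnl and the labelled arrays lay below all WT and arf2 arrays. MIND1 was lower in gnc gnl, by a log2 change of -0.33 ± 0.10 against WT (adjusted p = 0.0357, limma) and of -0.38 ± 0.10 against arf2 (adjusted p = 0.0131). The value of -0.28 ± 0.10 for the labelled libraries against WT did not pass (adjusted p = 0.163).

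MINE1, which regulates MIND1, was the member farthest from WT in gnc gnl. It read 2.08 and 1.81 on WT replicates 2 and 3, the spot of replicate 1 being marked as an outlier and left out. It read 2.23, 2.02 and 1.86 in arf2, 1.45, 1.28 and 1.56 in gnc gnl, and 1.63, 1.56 and 1.43 in the labelled libraries. As for MIND1, the gnc gnl and labelled arrays lay below all WT and arf2 arrays. The log2 change of MINE1 in gnc gnl was -0.45 ± 0.11 against 2 WT arrays (adjusted p = 0.0195, limma) and -0.51 ± 0.10 against arf2 (adjusted p = 0.00390). MINE1 was also lower in the labelled libraries than in arf2, at -0.40 ± 0.10 (adjusted p = 0.0393, limma), while the value against WT, -0.33 ± 0.11, did not pass (adjusted p = 0.158).

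**Figure D3:**
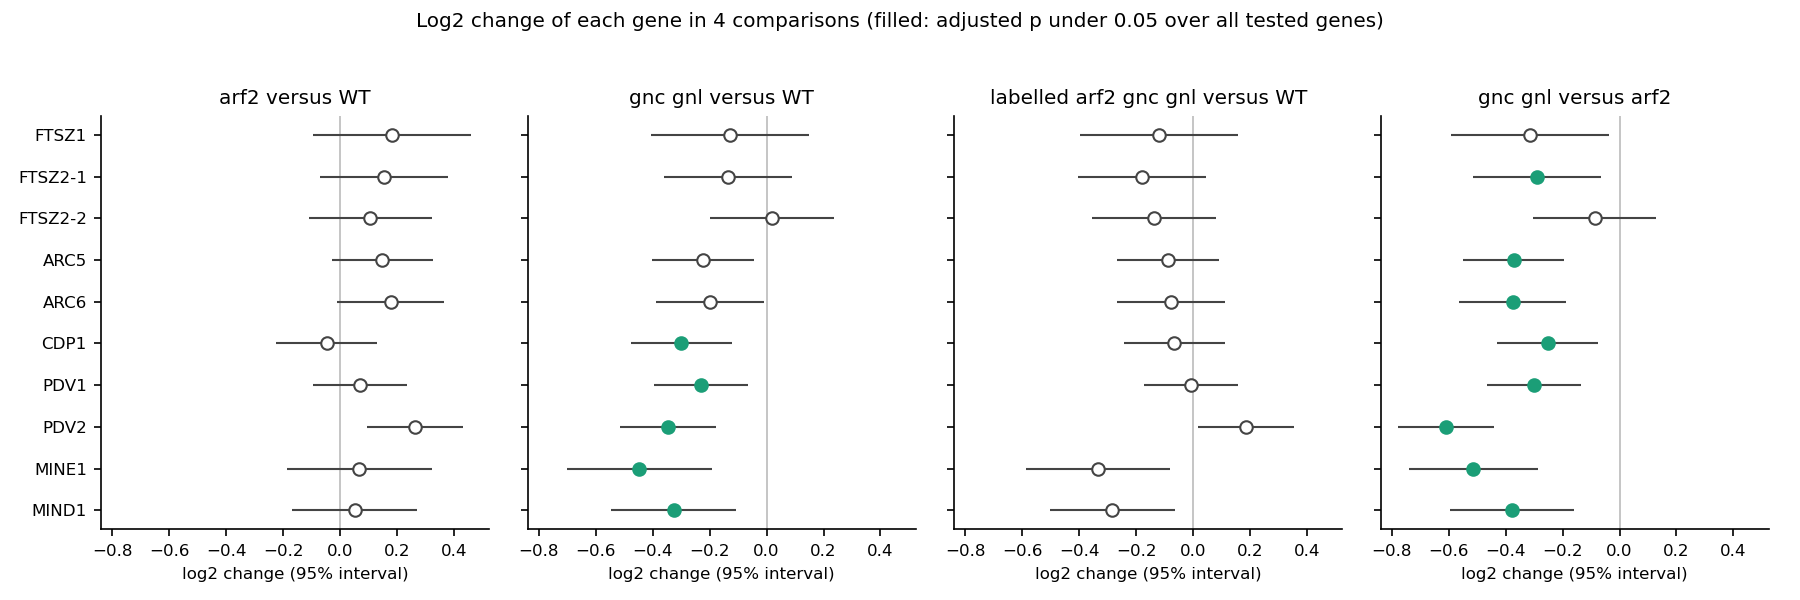
Log2 change of each gene with its 95% interval in 4 comparisons that share arrays. Filled points passed the adjusted p of 0.05 over all tested genes: none in arf2 or the labelled libraries against WT, 5 in gnc gnl against WT and 8 in gnc gnl against arf2, all below 0.

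Counted together, 5 of the 10 genes were lower in gnc gnl than in WT, namely MINE1, PDV2, MIND1, CDP1 and PDV1. None was higher, and 11.9% of all tested genes were lower. The 10 were chosen with earlier results of these data known, so the shares are a description. The median change of the 10 was -0.23, beside 0.0070 for all tested genes, and 9 were below 0. For 7 genes all gnc gnl arrays lay below all WT arrays (ARC5 and ARC6 besides the 5), as they did for 20.4% of all tested genes. In the same arrays root markers were higher, 4 of 7 by the test, with a summed signal of 93.1 to 103 in gnc gnl and 83.7 to 92.3 in WT. Seed transcripts were also higher, 5 of 10, at 3.29 to 30.1 against 1.64 to 2.27, with 6 to 8 of the 10 well above background on the WT arrays. Green tissue markers had 0 of 7 called, with log2 changes from -0.03 to 0.06 and sums of 839 to 1058 against 855 to 1002. Dividing cell markers had 0 of 7 called, with log2 changes from -0.07 to 0.33. Their sums were 7.16 to 11.3 in gnc gnl, and 9.61 and 7.46 on WT replicates 2 and 3. WT replicate 1, at 4.47, had no value for KNOLLE and the other 6 of the 7 well above background, so its sum is not set beside these. No marker list was at 0, and the part of tissue composition in the division genes was not tested.

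The calls against WT changed with single arrays and with the slides. Without WT replicate 1, 2 or 3 the count of lower members was 2, 1 and 3, without gnc gnl replicate 2 it was 1, without arf2 replicate 2 it was 3, and without the labelled libraries it was 3. All tested genes called in either direction fell as well, from 4670 to 3413, 2360, 3148, 3228, 4095 and 4066 in the same order. With slide as a fixed block, which links WT to gnc gnl only through the other genotypes, 0 members and 29 of all tested genes passed. The blocked log2 values were -0.60 for PDV2, -0.45 for CDP1, -0.16 for PDV1, -0.11 for MIND1 and -0.09 for MINE1 (adjusted p from 0.186 to 0.895, limma). Over the alternatives tried, PDV2 passed in 23 of 24, CDP1 in 18 of 24, MINE1 in 18 of 23, MIND1 in 13 of 24 and PDV1 in 5 of 24, and all of them stayed below 0.

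Between gnc gnl and arf2, 8 of the 10 genes were lower in gnc gnl, where 16.9% of all tested genes were. All but FTSZ1 (-0.31 ± 0.13, adjusted p = 0.0742, limma) and FTSZ2-2 (-0.09 ± 0.10, adjusted p = 0.512) passed. The arrays did not overlap for 8 genes, which held for 21.2% of all tested genes, and the median change was -0.34 beside 0.0097 for all tested genes. This comparison uses the gnc gnl arrays of the previous one, so the counts are not independent. Seed transcripts were lower in gnc gnl than in arf2 for 6 of 10 and higher for 1, and root markers were higher for 5 of 7. Green tissue markers had 0 of 7 called, but all 7 were below 0, with log2 changes from -0.30 to -0.12, and sums of 839 to 1058 in gnc gnl against 1025 to 1123 in arf2. The part of these markers was not tested. PDV2 passed in all 24 alternatives, ARC5 and ARC6 in 23 of 24, MINE1 in 22 of 23, PDV1 and MIND1 in 21 of 24, CDP1 in 16 of 24 and FTSZ2-1 in 8 of 24. These genotypes shared no slide, and a fixed slide block links them only through the labelled libraries. With that block only PDV2 passed, at -0.82 (adjusted p = 0.0234), and 414 of all tested genes did. Without the labelled libraries in the fit the count was 6. All tested genes called in either direction were then 6386, beside 6933 in the main fit.

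In arf2 against WT, 0 of the 10 genes passed by limma, where 5.68% of all tested genes did, and 1, PDV2, had an unadjusted p under 0.05. The changes ran from -0.05 for CDP1 to 0.26 for PDV2, with 9 of 10 above 0 and a median of 0.13 beside -0.0029 for all tested genes. The median was 0.07 without WT replicate 3, 0.08 without arf2 replicate 1 or 2, and 0.20 without arf2 replicate 3, and 7 of the 10 were above 0 without arf2 replicate 1. Within slide 1, where arf2 replicate 1 lay beside all WT arrays, the median was 0.21 and again no member passed. The sum of the seed transcripts was 56.0 to 93.7 in arf2 and 1.64 to 2.27 in WT, with 7 of 10 higher. Green tissue markers had 0 of 7 called, with log2 changes from 0.12 to 0.29 and sums of 1025 to 1123 against 855 to 1002. The part of these markers was not tested.

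In the labelled libraries against WT, 0 of the 10 genes passed by limma, where 2.26% of all tested genes did. An unadjusted p under 0.05 was found for 3, namely PDV2, above 0 at 0.19, and MINE1 and MIND1, below 0 at -0.33 and -0.28. On the brighter PDV2 probe, with marked spots kept, the value was -0.17. The median change of the 10 was -0.10 beside -0.0075 for all tested genes, with 9 of 10 below 0. It was -0.17 without WT replicate 3, -0.06 without WT replicate 2 and -0.07 without labelled replicate 1. No slide held both groups, and a fixed slide block links them only through the other genotypes. With that block MINE1 stood at -0.08, MIND1 at -0.06 and PDV2 at 0.06, all smaller than in the main fit. The median was then -0.07, and 0 members and 6 of all tested genes passed. Seed transcripts were higher than in WT for 7 of 10, while green tissue, root and dividing cell markers each had 0 of 7 called. The median change was -0.16 for the green tissue markers (from -0.21 to 0.07), -0.09 for the root markers and -0.19 for the dividing cell markers. The part of these markers was not tested. Against arf2, MINE1 alone was lower, 1 of 10 where 4.68% of all tested genes were, with all 10 values below 0. Within slide 2, which held both groups, MINE1 stood at -0.28 and did not pass (adjusted p = 0.201, limma), and without arf2 replicate 3 the count rose to 6 members. Without arf2 replicate 1 or 2, or without any of the 3 labelled libraries, it was 0. Without gnc gnl replicate 2 it was 2. All tested genes called in either direction moved as well, from 1695 to 2802 without arf2 replicate 3. They were 174 and 132 without arf2 replicates 1 and 2, 155 to 684 without 1 labelled library, and 1993 without gnc gnl replicate 2. Green tissue markers were below 0 for all 7 in the same comparison, with log2 changes from -0.39 to -0.22 and a median of -0.32, beside -0.25 for the members. One of them, LHCB5, a light-harvesting protein, was lower at -0.39 ± 0.10 (adjusted p = 0.0326, limma). Their summed signal was 791 to 964 in the labelled libraries and 1025 to 1123 in arf2, and their part was not tested.

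Set against gnc gnl, the labelled libraries had 1 of 10 genes higher, PDV2 at 0.53 ± 0.08 (adjusted p = 0.00294, limma), where 5.28% of all tested genes were higher. CDP1 and PDV1 stood at 0.23 ± 0.08 and 0.22 ± 0.08 and did not pass (adjusted p = 0.0832 and 0.0773). The PDV2 call was lost with the brighter probe, which replaces the dimmer one when outlier spots are kept (log2 change 0.18), and within slide 3, where the change was 0.66 (adjusted p = 0.334) against 1 labelled array. Without gnc gnl replicate 3 the count was 2, with 1803 of all tested genes called in either direction, beside 2221 in the main fit. Root markers were lower in the labelled libraries for 5 of 7, with log2 changes from -1.04 for PRP3 to -0.28 for PYK10 among the 5. Their summed signal was 76.9 to 83.9, against 93.1 to 103 in gnc gnl. Seed transcripts were higher for 1 of 10, and the part of these markers was not tested.

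The interaction contrast asks whether the step from WT to arf2 differed from the step from gnc gnl to the labelled libraries. Because ARF2 and GNL go against their label, the contrast is not read as an interaction of the arf2 and gnc gnl mutations. It passed for 0 of the 10 genes by limma, where 2.64% of all tested genes passed. Unadjusted p under 0.05 was found for 2 genes, CDP1 at 0.28 ± 0.11 (adjusted p = 0.206) and PDV2 at 0.27 ± 0.11 (adjusted p = 0.200). The PDV2 value comes from the dimmer of its 2 probes. Over 22 alternatives it ran from 0.08 to 0.44 and passed in 0.

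Partners of a step were also compared within each array, which removes the scaling between arrays. With 3 arrays a genotype an exact two-sided permutation test cannot give a p under 0.1, and over the 12 tests the smallest adjusted value was 0.2, so none could pass. The log2 difference of FTSZ2-1 minus FTSZ2-2 was 1.20 ± 0.02 (SD, n = 3) in WT, 1.25 ± 0.01 in arf2, 1.05 ± 0.004 in gnc gnl and 1.16 ± 0.03 in the labelled libraries. It was lower in gnc gnl than in WT by -0.16 with no overlap (exact p = 0.1), a difference larger than the spread between arrays of a genotype.

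PDV2 minus PDV1 lay above all WT arrays, by 0.19 in arf2 and by 0.19 in the labelled libraries (exact permutation p = 0.1 in both), but with outlier spots kept, and so with the brighter PDV2 probe, the same differences were 0.02 and -0.16. CDP1 minus ARC6 was lower than WT by -0.22 in arf2 with no overlap (exact permutation p = 0.1) and by -0.10 with overlap in gnc gnl. MIND1 minus MINE1 was 0.11 above WT in gnc gnl with no overlap, from 3 against 2 arrays (exact permutation p = 0.1). With the marked spot of MINE1 kept, the groups overlapped and the difference was 0.08 (exact permutation p = 0.2). After normexp correction FTSZ2-1 minus FTSZ2-2 differed from WT by -0.23 in gnc gnl.

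**Figure D4:**
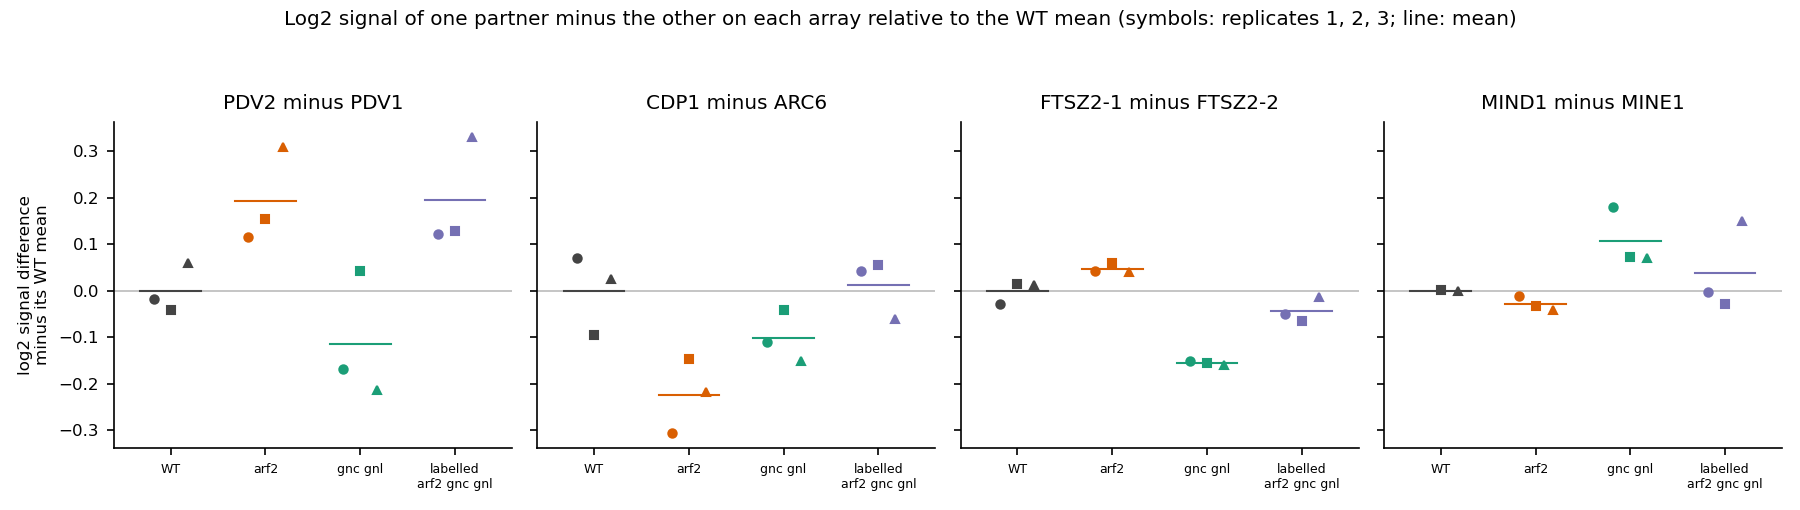
Log2 signal of 1 partner minus the other on each array, shown relative to the WT mean of that difference, for 4 pairs and the 4 genotypes. Symbols are replicates 1, 2 and 3 and lines are means. FTSZ2-1 minus FTSZ2-2 is tightly grouped, with all gnc gnl arrays below all others.

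Levels of the members were compared with each other over the arrays. Of 45 pairs, 44 had a Pearson correlation above 0 over the 12 arrays (11 for pairs with MINE1), with a median of 0.76. The pairs ARC5 with ARC6 (0.97) and MINE1 with MIND1 (0.96) were most alike, and FTSZ2-2 with PDV2 (-0.017) least. After each genotype mean was removed the median was 0.58, ranging from -0.44 to 0.99. Genes read on the same array share its scaling and whatever else was particular to that array, so these values are a description. Replicate 3 of arf2, for instance, was the lowest arf2 array for 9 of the 10 members, all but PDV2. Its mean of the members' centred log2 levels was 0.06, beside 0.24 and 0.23 for replicates 1 and 2.

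Outside the members, the gene most like their mean profile was HCF101, a plastid scaffold protein for iron-sulphur clusters (Pearson r = 0.99 over 12 arrays). Its log2 change in gnc gnl against WT was -0.33 ± 0.10. HCF101 was picked for likeness to a profile that was itself lowest in gnc gnl on these arrays. Its change is therefore a description and is given with no p. AT3G10840 and AT3G15570 followed, at r = 0.99 and 0.98. Most like single members were AT5G39980 for both ARC5 and ARC6 (0.97 and 0.98), 2-Cys Prx B, a plastid peroxiredoxin, for MINE1 (0.99 over 11 arrays), ACT3 for MIND1 (0.99), SHM3 for FTSZ1 (0.97), AT5G66470 for FTSZ2-1 (0.98) and Tic20-II for FTSZ2-2 (0.96). AT2G06040 was nearest to CDP1 (0.95), AT1G36240 to PDV1 (0.97) and AT1G27120 to PDV2 (0.96).

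A list of 19 other factors tied to plastid division, also chosen with earlier results of these data known, was read in the same fit. In gnc gnl against WT 5 of 19 were lower, where 11.9% of all tested genes were, and none was higher, with 17 below 0 and a median of -0.18 beside 0.0070 for all tested genes. They were CJD1, a J-like protein of the chloroplast, at -0.41 ± 0.08 (adjusted p = 0.00699, limma), and MCD1, an inner envelope protein needed to place the ring, at -0.31 ± 0.07 (adjusted p = 0.00919). CPN60A1, a plastid chaperonin subunit, followed at -0.30 ± 0.09, ARC3, an inhibitor of FtsZ assembly at other sites, at -0.22 ± 0.07, and MSL2, a mechanosensitive channel of the plastid envelope, at -0.21 ± 0.06. In the labelled libraries MSL2 and MCD1 were lower than in WT, at -0.32 ± 0.06 (adjusted p = 0.0302) and -0.30 ± 0.07 (adjusted p = 0.0498), and in arf2 none of the 19 passed. Against arf2, 9 of 19 were lower in gnc gnl, where 16.9% of all tested genes were.

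Factors for division of mitochondria and peroxisomes, 13 in all, were read in the same way. In gnc gnl against WT 2 were higher and 1 lower, a share near the 24.6% of all tested genes that passed in either direction, with a median of 0.083. Higher were PEX11E, of a family that drives peroxisome proliferation, at 0.39 ± 0.06 (adjusted p = 0.00211, limma), and ELM1, which brings dynamin to mitochondria, at 0.25 ± 0.06 (adjusted p = 0.0152). None of the 13 passed in arf2 or in the labelled libraries against WT.

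**Figure D5:**
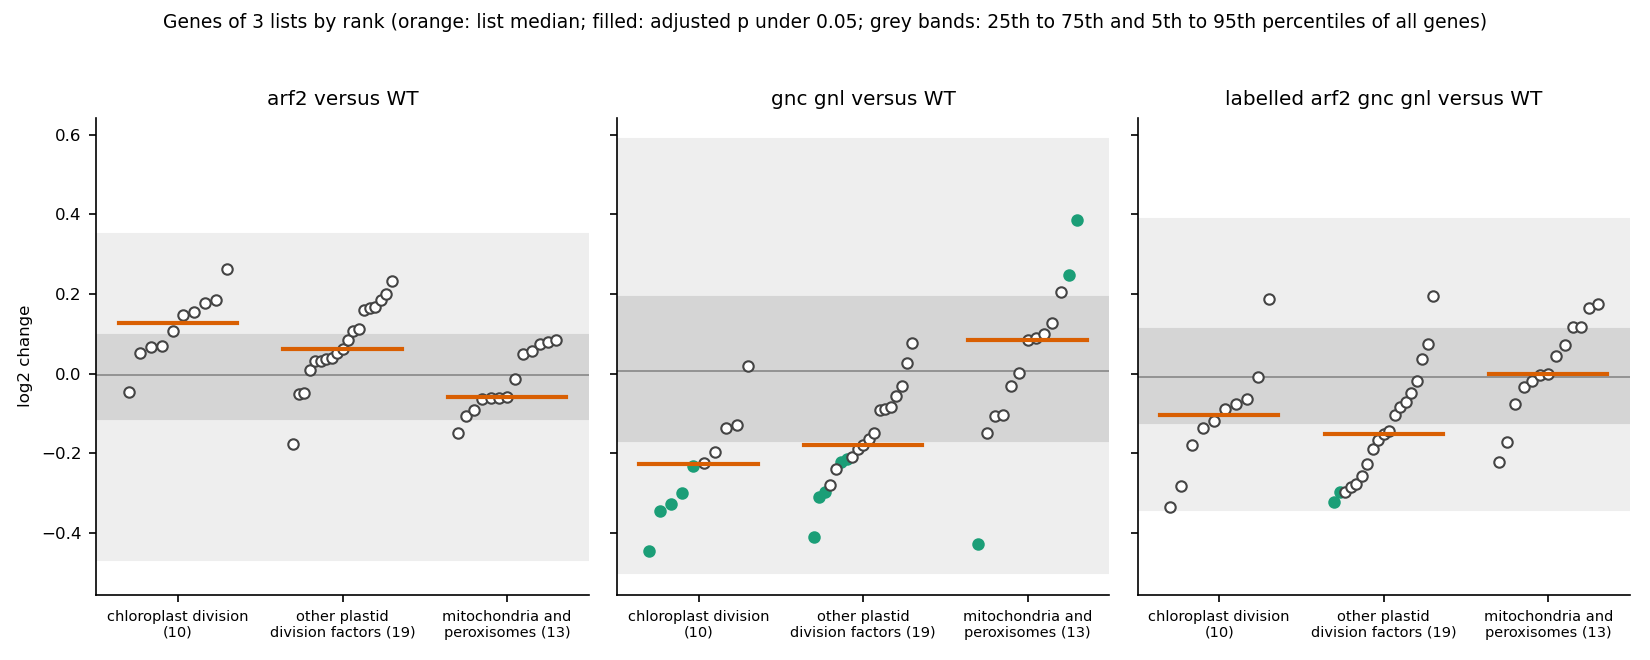
Log2 changes from WT of the 10 chloroplast division genes, 19 other plastid division factors and 13 mitochondrial and peroxisomal factors, ranked within each list, for the 3 comparisons with WT, which share the WT arrays. Orange lines are list medians, filled points passed the test, and grey bands run from the 25th to the 75th and from the 5th to the 95th percentile of all tested genes. The bands show the spread of single genes and are no measure for a list's median. In gnc gnl the medians of the plastid lists lie at -0.23 and -0.18.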

How the data were processed

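Cy3-labelled cRNA from whole seedlings of 4 genotypes, 3 arrays each, was measured on one-colour Agilent arrays, and each array's group is its labelled genotype. The deposited scanner files give a linear intensity per spot. Agilent Feature Extraction subtracted the background and removed spatial trends from each array, per the file headers, and the submitters' processing notes give its version as 10.7.3.1. The series table deposited by the authors holds the same intensity values (0 cells differ), so it gave no alternative. On each array 64.6% to 70.2% of spots were well above background, and the number of arrays limits the precision.

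From these files, control and outlier spots were removed, repeated spots of a probe were averaged, and each array's 75th percentile was subtracted from its log2 intensity. Of 43603 probes, 34285 carried a locus, and gene symbols were looked up in RefSeq annotation of TAIR10.1. The scanner headers name an older build, so no coordinates are given, and promoter sequences were not analysed here. The brightest testable probe stood for a gene. A probe was testable when some genotype had it well above background on its 3 arrays and every genotype had at least 2 values. This left 19020 genes, of which 647 lacked a value on some array.

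One mean per genotype was fitted with limma 3.58.1 in R 4.3.3 (lmFit, eBayes, 8 residual degrees of freedom), with Benjamini-Hochberg adjustment over all tested genes. Pair differences were tested by exact permutation. Figures were drawn with matplotlib 3.10.9. The code was tested on simulated data. Slides were fitted as fixed and random blocks, and the other alternatives were quantile, median and normexp processing (offset 50, on median signals, since no mean signal is given), other filters, all probes of a gene, a replicate block and each array left out. The mean over all probes used probes with a value on every array.

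All members are named. Of the other lists, genes past the threshold against WT are named, up to 6 a comparison, and for each member and for their mean the genes with the highest Pearson r. One gene of these lists that passed is not reported here by name. The members and lists were chosen with earlier results of these data known. Replicate numbers showed no clear pairing of the samples. Of 18 pairs with the same number, 7 had a correlation of deviations from the genotype means over 0.1 (range -0.37 to 0.37). The median was 0.03, beside -0.02 for pairs with other numbers.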

Additional observations from a re-analysis of the deposited data

How the results depend on the processing

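Of 1653 recomputed log2 changes of the members, 1507 kept their direction and side of the threshold, 88 lost the call and 12 gained one. The other 46 changed sign without being called on either side, among them PDV2 in the labelled libraries against WT, and no called change changed sign. Of the differences between partners, 7 moved by more than the spread between arrays with normexp and 3 with outlier spots kept, 2 of these being PDV2 minus PDV1. FTSZ2-1 minus FTSZ2-2 in arf2 went from 0.05 to -0.02 with normexp. Calls over all tested genes moved with the setting too, for gnc gnl against WT from 4670 to 3680 with median scaling and 2267 with normexp. Counts of members called moved by over 1.5 times as follows. For gnc gnl against WT, 5 in the main fit, the count was 2 with median scaling, 1 with normexp, 3 with no filter on detection, 0 with slide as a fixed block, 2 with only the groups compared and 3 without the labelled libraries. For gnc gnl against arf2 (8) it was 5 with median scaling, 5 with normexp, 5 with only the groups compared and 1 with slide fixed. For the F test (7) it was 2 with median scaling, 1 with normexp and 1 with slide fixed. For the labelled libraries against arf2 (1) it was 0 with median scaling, normexp, detection on all 12 arrays, slide fixed, within slide 2 and only the groups compared, and 2 with no filter. For the labelled libraries against gnc gnl (1) it was 2 with quantile normalization, 0 with outlier spots kept and 0 within slide 3. With the replicate block the F test gave 4 and the labelled libraries against arf2 gave 0, and no other count moved by over 1.5 times. The replicate numbers showed no clear pairing of the samples, and whether a call lost there marks a weaker change was not tested. Leaving out 1 array at a time gave 1 to 5 calls for gnc gnl against WT, 6 to 9 for gnc gnl against arf2, 3 to 8 for the F test, 0 to 6 for the labelled libraries against arf2 and 1 to 2 against gnc gnl, and 0 in every case for arf2 against WT, for the labelled libraries against WT and for the interaction. Fits with fewer arrays have less power by construction, and the cause of the other moves was not tested. Where 1 array of a genotype was left on a slide, it was assumed to vary like the others. The random slide block gave a correlation of 0.028, estimated from the genotypes that span 2 slides. Neither WT nor arf2 shares a slide with gnc gnl, and WT shares none with the labelled libraries. In these comparisons slide and genotype are told apart only through the other genotypes.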
